A study of Mus musculus with 20 samples.

Results

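The 7 genes of thyroid hormone action followed here in the mouse ovary were the nuclear receptors Thra and Thrb, the deiodinases Dio2 and Dio3, the transporter Slc16a10, and the hormone-responsive genes Klf9 and Hr. They were taken by gene symbol, make up 7 of the 23457 genes in the deposited count files, and all 7 had enough counts to be tested, as did 16099 genes in all. Polyadenylated RNA was sequenced from ovaries of the Ames dwarf strain, in 20 libraries labelled as 20 females. The groups were normal heterozygotes (N/df) at 6 months, normal heterozygotes at 22 months, dwarfs (df/df) at 6 months and dwarfs at 22 months, with 5 mice each. The df allele is carried in all cells of the animal, and df/df mice lack thyrotropin together with growth hormone and prolactin, so a difference between genotypes cannot be assigned to any 1 of these hormones. The controls carry 1 df allele, and no group is labelled as treated with thyroid hormone. Ovaries were flash frozen. Each library is a bulk sample, in which fewer cells of a type and less RNA per cell cannot be told apart.

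The thyroid gland releases mainly the prohormone thyroxine (T4) under the drive of thyrotropin, and tissues convert it to the active hormone triiodothyronine (T3). Dio2 activates T4 to T3 inside the cell, Dio3 inactivates both, and transporters such as the one encoded by Slc16a10 (MCT10) carry the hormones across the membrane. The receptors encoded by Thra and Thrb sit on DNA with retinoid X receptors and switch target genes such as Klf9, a zinc finger transcription factor, and Hr, the corepressor hairless.

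Deiodinases are selenoenzymes, read through a TGA codon that inserts the selenocysteine of the active site. The first selenocysteine codon annotated in each deiodinase transcript (GENCODE M21, GRCm38) stands in capitals with 15 transcript bases on either side, because this is the shared catalytic feature of Dio2 and Dio3. Dio1, the related deiodinase of liver and kidney, is added for comparison.

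Dio2, chr12:90729823-90729825, minus strand: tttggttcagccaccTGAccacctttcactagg

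Dio3, chr12:110279739-110279741, plus strand: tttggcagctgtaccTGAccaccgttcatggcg

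Dio1, chr4:107297700-107297702, minus strand: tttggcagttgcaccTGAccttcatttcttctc

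Dio2 and Dio3 had the same base at 21 of these 33 positions, Dio1 and Dio3 at 22, and Dio1 and Dio2 at 18. GENCODE annotates a second selenocysteine codon in Dio2.

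Promoters of 250 bases before to 50 after the start were found in RefSeq (GRCm38.p6) for 5 of the 7 genes, 6 promoters in all since Thrb has more than 1 start. The half-site AGGTCA, searched on both strands, stood in 1 of them, the upstream promoter of Thrb, and in 16.3% of all 32851 promoters. It is printed in capitals in that promoter, which is shown because Thrb was called with age in dwarfs.

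Thrb, chr14:17660710-17661009, plus strand: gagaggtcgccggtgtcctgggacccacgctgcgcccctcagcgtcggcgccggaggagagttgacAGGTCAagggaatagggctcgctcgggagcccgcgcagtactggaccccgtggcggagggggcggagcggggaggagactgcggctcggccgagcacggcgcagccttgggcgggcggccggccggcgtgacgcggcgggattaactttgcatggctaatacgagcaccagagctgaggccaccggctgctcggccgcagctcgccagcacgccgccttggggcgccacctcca

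The direct repeat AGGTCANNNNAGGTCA, which contains the half-site, was in none of the 6 and in 5 of the 32851 (0.0152%). A match is a description of the letters and not of a bound site.

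Levels are CPM, counts scaled to a common library total over genes, as mean ± SD over the 5 libraries of a group. Differences are log2 fold changes from edgeR's quasi-likelihood test, and a gene is called when its Benjamini-Hochberg adjusted p, over the 16099 genes, is under 0.05. The SE beside a fold change was derived from the fold change and the test's F statistic, as the size of the first divided by the square root of the second. Library totals ran from 1365640 to 36068284, and the shallowest was normal 6-month replicate 3, where 153 counts for Thra gave 112 CPM with a 95% exact Clopper-Pearson interval of 95.0 to 131 CPM that covers counting error only. Granulosa markers summed to 288 to 6260 CPM over the groups, oocyte markers to 5.83 to 615 CPM and theca and interstitial markers to 78.9 to 1360 CPM. Normal 6-month replicate 2 held the lowest value of granulosa, oocyte and theca markers and stood apart from its group. Its luteal markers summed to 256 CPM against 11300 to 14900 CPM in the other 4, and the oviduct secretory gene Ovgp1 reached 4760 CPM there. Dwarf 22-month replicates 1 and 4 differed by a chi-square per degree of freedom of 2.42, against 11.6 or more for any other pair within a group. Their counts differed by more than sampling noise and they carry separate labels, so they were counted as 2 mice, but whether they came from 1 animal cannot be told from these files. Normal 22-month replicate 3 had B and plasma cell markers at 1250 CPM, the highest of the 20 libraries. Replicate 3 of each normal group, together with replicate 2 of the younger normal group, are called the 3 libraries here. Values without them are given for Thra (genotype at 6 months) and Hr (age, and genotype at 6 months). They are also given for counts of called genes, for likeness between genes and for log2 fold changes whose sign turned without them. Other values in comparisons that hold these libraries are not given without them one by one, and may rest on them.

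Of the 7 genes, 1 was called for genotype at 6 months (Thra, higher in dwarfs) beside 4.57% of all tested genes, and 1 for age in dwarf mice (Thrb, higher at 22 months) beside 11.2% of all genes. None was called for genotype at 22 months (3.81% of all genes), for age in normal mice (6.75%) or for the difference of the age responses (0%). The median log2 fold change of the 7 genes was -0.22 for genotype at 6 months and 0.20 at 22 months, against -0.04 over all tested genes in both. With age it was 0.03 in normal mice and 0.29 in dwarfs, against -0.02 and 0.00 over all genes. At an unadjusted p under 0.05, 1127 of all genes passed for the difference of the age responses, where edgeR called none, DESeq2 17 and limma voom 9. Leaving out the 3 libraries, Hr was called for age in normal mice, Thrb and Hr in dwarfs, Thra for genotype at 6 months and no member at 22 months.

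**Figure D1:**
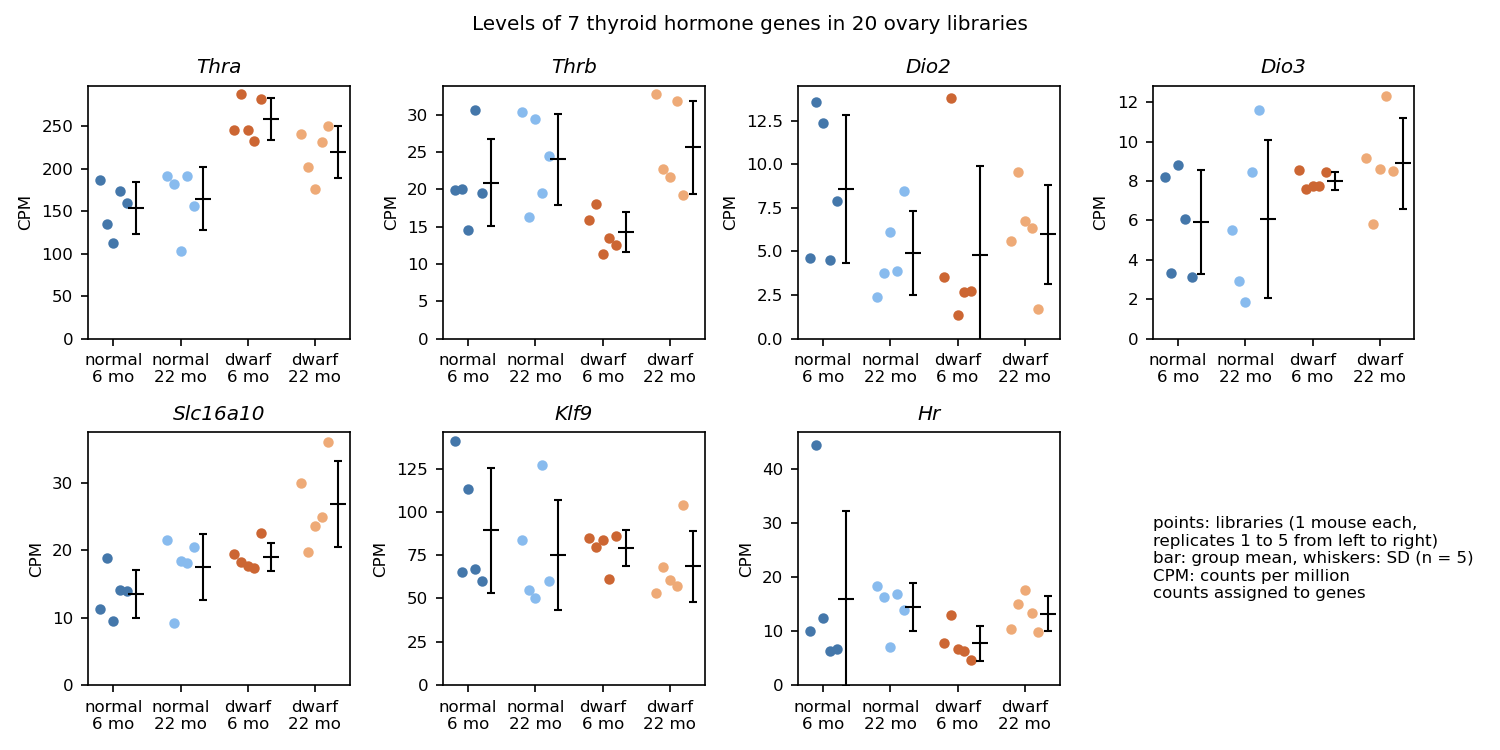
CPM of each of the 7 genes (vertical axes from 0) in the 5 libraries of each group (points, replicates 1 to 5 from left to right), with the group mean and SD; whiskers that would run below 0 end at the axis. The 5 dwarf 6-month libraries of Thra lie between 232 and 288 CPM, above the 5 normal 6-month libraries at 112 to 187 CPM.

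Thra encodes the thyroid hormone receptor that predominates in heart, bone and brain (mm10 chromosome 11, 98741873 to 98765111, plus strand). In normal ovaries at 6 months it stood at 187, 135, 112, 174 and 160 CPM in replicates 1 to 5, and in dwarf ovaries of that age at 245, 288, 246, 232 and 282 CPM. Every dwarf library was above every normal one. Means were 153 ± 30.1 and 258 ± 24.6 CPM (SD, n = 5), a 1.65-fold difference (log2 0.72 ± 0.147, edgeR adjusted p = 0.00731). Without the 3 libraries the difference was 0.61 (edgeR adjusted p = 0.00416), and it passed in all 24 alternative settings, at log2 0.57 to 0.79 and adjusted p = 0.000177 to 0.0306 (edgeR, DESeq2 and limma).

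At 22 months Thra read 191, 182, 103, 191 and 156 CPM in normal mice and 241, 202, 176, 231 and 250 CPM in dwarfs, and the groups overlapped. Means were 165 ± 37.0 and 220 ± 30.7 CPM (SD, n = 5; a log2 change of 0.33 ± 0.147, edgeR adjusted p = 0.227). The age difference was 0.07 ± 0.147 in normal mice (edgeR adjusted p = 0.798) and -0.31 ± 0.146 in dwarfs (edgeR adjusted p = 0.168; it passed in limma voom at -0.24, adjusted p = 0.0393). The difference between those age responses, -0.39 ± 0.207, did not pass (edgeR adjusted p = 0.781), so the genotype difference at 6 months was not shown to differ from that at 22 months. In order of mean level, dwarfs at 6 months came first, then dwarfs at 22 months, normal mice at 22 months and normal mice at 6 months, and each neighbouring pair overlapped.

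Beside the Thra difference at 6 months, luteal markers summed to 1980 to 3610 CPM in dwarfs and 256 to 14900 CPM in normal mice, 4 of the 10 were lower in dwarfs and none higher, and none was at 0 in any library. The Thra difference without normal 6-month replicate 2, the library with the 256 CPM, was 0.71 (edgeR adjusted p = 0.00725). The other normal 6-month libraries had 11300 to 14900 CPM of luteal markers, above every young dwarf library. None of the 10 luteal markers had a positive log2 fold change in that comparison, and their median was -2.42. Of the 9 adipocyte markers 1 was lower in dwarfs (78.9 to 140 CPM summed against 115 to 450 CPM), with Lep at 0 in a normal library. Of the 7 theca and interstitial markers 1 was higher and 1 lower in dwarfs (451 to 1050 CPM summed against 78.9 to 1360 CPM), and of the 9 stroma markers 1 was lower (2850 to 3700 against 2420 to 4810 CPM). Beside these marker counts, genotype at 6 months called 4.57% of all genes, 365 higher and 370 lower in dwarfs. The part of cell makeup in the Thra difference was not tested.

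Thra is known for a splice variant, TRα2, that does not bind T3 and whose last exon overlaps the neighbouring gene Nr1d1 on the other strand. The deposited gene model of Thra holds 1 transcript of 2246 exon bases, shares no exon base with another gene and has the span of GENCODE Thra-202. GENCODE Thra-201 runs on to 98769006 and has 263 of its bases in the deposited exons of Nr1d1, and Thra-203 has 130. Whether reads were assigned by strand is not given in the sources used here, so reads from the bases shared with Nr1d1 may stand under that gene. Of the 2452 exon bases of Thra-201, 1540 lie in the deposited Thra exons, as do 1110 of the 1240 of Thra-203, so the Thra counts hold reads of these variants too and do not separate the isoforms. Nr1d1, the clock repressor Rev-erbα, was at 219 ± 40.1 CPM in normal mice and 323 ± 62.4 CPM in dwarfs at 6 months (SD, n = 5). The groups did not overlap but the difference was not called (log2 0.52 ± 0.212, edgeR adjusted p = 0.188).

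Thrb encodes the receptor known for hormone feedback in the pituitary and for hearing and colour vision (chromosome 14, 17660960 to 18038088, plus strand). In dwarfs it was at 15.9, 18.0, 11.4, 13.5 and 12.5 CPM at 6 months and at 32.8, 22.7, 21.6, 31.8 and 19.3 CPM at 22 months. All 5 older dwarfs were above all 5 younger ones. Means were 14.3 ± 2.68 and 25.6 ± 6.22 CPM (SD, n = 5), a 1.70-fold rise (log2 0.77 ± 0.204, edgeR adjusted p = 0.0218). The call was lost, at edgeR adjusted p = 0.061 and 0.06, without dwarf 22-month replicate 1 or 4 (log2 0.68 and 0.69). It was also lost without dwarf 6-month replicate 3 or 5 (log2 0.73 and 0.78, edgeR adjusted p = 0.0565 and 0.0566). Summing the closely alike 22-month replicates 1 and 4 as 1 library gave 0.69 (edgeR adjusted p = 0.0586).

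In normal ovaries Thrb read 19.9, 20.0, 14.6, 30.6 and 19.5 CPM at 6 months and 30.4, 16.3, 29.4, 19.5 and 24.5 CPM at 22 months. These groups overlapped, with means of 20.9 ± 5.85 and 24 ± 6.11 CPM (SD, n = 5; a log2 change of 0.18 ± 0.205, edgeR adjusted p = 0.632). The age responses of the genotypes differed by 0.59 ± 0.289 (edgeR adjusted p = 0.726), so the age response of dwarfs was not shown to differ from that of normal mice. Between genotypes, the difference was -0.59 ± 0.205 at 6 months (edgeR adjusted p = 0.11) and 0.00 ± 0.203 at 22 months (edgeR adjusted p = 0.997). At 6 months it passed in DESeq2 (-0.63, adjusted p = 0.0427) and limma voom (-0.68, adjusted p = 0.0391). In order of mean level, dwarfs at 22 months, normal mice at 22 months and normal mice at 6 months overlapped, and dwarfs at 6 months came last and overlapped with normal mice at 6 months.

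With age in dwarfs, other markers moved beside Thrb, in a comparison that called 11.2% of all genes, 1332 lower and 470 higher. Oviduct and epithelium markers summed to 94.9 to 2150 CPM at 6 months and 2570 to 4560 CPM at 22 months, with none of the 10 called and none at 0. Ciliated cell markers, of which 8 were tested and none called, summed to 10.0 to 604 against 402 to 882 CPM. Of 9 adipocyte markers 7 rose (78.9 to 140 against 209 to 525 CPM summed; Lep was at 0 in an older dwarf), and of 7 surface epithelium markers 3 rose (52.5 to 362 against 434 to 794 CPM; none at 0). Of 12 oocyte markers 10 fell (417 to 615 against 63.7 to 100 CPM; Figla and Sohlh1 were at 0 in older dwarfs). Of 9 stroma markers Lum, Dcn and Ogn rose and Col1a2 fell (2850 to 3700 against 2880 to 4140 CPM summed; none at 0). Of 12 granulosa markers 1, Amh, fell, and the summed level did not overlap (3150 to 5100 against 1480 to 3000 CPM; none at 0). Of 7 theca and interstitial markers 1, Insl3, fell (451 to 1050 against 229 to 616 CPM), with Hsd3b6 at 0 in an older dwarf, and of 6 smooth muscle markers 1, Myocd, fell (1240 to 3120 against 956 to 3590 CPM; none at 0). The part of these changes in the rise of Thrb was not tested.

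The receptors can be set against each other per kilobase of exon. Thra stood at 68.3 ± 13.4 and 73.3 ± 16.5 CPM per kb in normal mice at 6 and 22 months and at 115 ± 11 and 98.0 ± 13.7 in dwarfs (SD, n = 5). Thrb stood at 3.19 ± 0.893 and 3.66 ± 0.932 CPM per kb in normal mice and at 2.18 ± 0.409 and 3.91 ± 0.948 in dwarfs. Thra, with its isoforms counted together, was thus the more abundant receptor transcript in every library. How much of it encodes a receptor that binds T3 cannot be told from these counts. The Thra to Thrb ratio of levels per kb was 16.6 to 27.4 in normal mice at 6 months, 10.3 to 32.5 at 22 months, 45.0 to 65.9 in dwarfs at 6 months and 21.2 to 37.9 in dwarfs at 22 months. The ratio of the young dwarfs lay above that of the other 3 groups, given as a description since it joins values tested above.

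**Figure D2:**
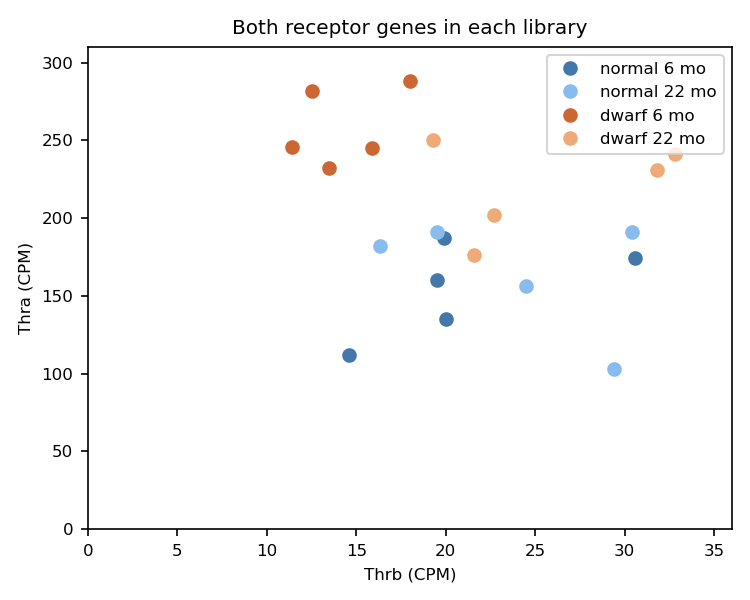
Thra (vertical) against Thrb (horizontal) in CPM, both axes from 0, with 1 point per library coloured by group. Dwarf libraries at 6 months take the upper left, with Thra at 232 to 288 CPM and Thrb at 11.4 to 18.0 CPM.

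Of the deiodinases, Dio2 raises T3 within a cell (chromosome 12, 90724552 to 90738438, minus strand). It was at 4.62, 13.6, 12.4, 4.50 and 7.88 CPM in normal mice at 6 months and at 2.37, 3.78, 6.13, 3.86 and 8.49 CPM at 22 months. In dwarfs it was at 3.55, 13.8, 1.35, 2.67 and 2.72 CPM at 6 months and at 5.59, 9.58, 6.77, 6.36 and 1.67 CPM at 22 months. All 4 groups overlapped, and the SD of the young dwarfs came from replicate 2, which stood apart at 13.8 CPM. Means were 8.61 ± 4.27, 4.93 ± 2.41, 4.82 ± 5.10 and 5.99 ± 2.85 CPM (SD, n = 5, same order). No difference passed: genotype gave log2 -0.90 ± 0.561 at 6 months and 0.20 ± 0.554 at 22 months (edgeR adjusted p = 0.422 and 0.922). Age gave -0.81 ± 0.563 in normal mice and 0.29 ± 0.551 in dwarfs (edgeR adjusted p = 0.401 and 0.756). Without dwarf 6-month replicate 2, genotype at 6 months gave -1.78 and age in dwarfs 1.14 (edgeR adjusted p = 0.0594 and 0.133). Leaving out dwarf 22-month replicate 2 or 5 moved the age value to 0.06 or 0.54 (edgeR adjusted p = 0.966 and 0.545). Genotype at 6 months ran from -1.78 to -0.58 without 1 library and from -1 to -0.24 in the other settings. Its adjusted p over all settings was 0.0594 to 0.836 (edgeR, DESeq2 and limma). Age in normal mice ran from -1.09 to -0.49 without 1 library and from -0.98 to -0.24 in the other settings.

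Dio3 removes T4 and T3 and is known for high levels in placenta and pregnant uterus (chromosome 12, 110279230 to 110281097, plus strand, a single exon). It was at 8.22, 3.35, 8.79, 6.06 and 3.14 CPM in normal mice at 6 months and at 5.53, 2.92, 1.83, 8.48 and 11.6 CPM at 22 months. In dwarfs it was at 8.54, 7.60, 7.74, 7.73 and 8.48 CPM at 6 months and at 9.19, 5.83, 8.63, 12.3 and 8.52 CPM at 22 months. The groups overlapped, and the young dwarfs spanned less than 1 CPM. Means were 5.91 ± 2.64, 6.07 ± 4.02, 8.02 ± 0.453 and 8.89 ± 2.30 CPM (SD, n = 5, same order). Genotype gave log2 0.46 ± 0.404 at 6 months and 0.49 ± 0.395 at 22 months (edgeR adjusted p = 0.611 and 0.583), and age 0.03 ± 0.405 in normal mice and 0.06 ± 0.391 in dwarfs (edgeR adjusted p = 0.976 and 0.934).

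Per kilobase, Dio3 was at 3.16 ± 1.41, 3.25 ± 2.15, 4.29 ± 0.243 and 4.76 ± 1.23 CPM per kb and Dio2 at 1.48 ± 0.735, 0.847 ± 0.414, 0.830 ± 0.876 and 1.03 ± 0.490 (normal at 6 and 22 months, dwarf at 6 and 22 months; SD, n = 5). On this scale the transcript of the inactivating enzyme had the higher mean level in all 4 groups, and the higher level in 18 of the 20 libraries. The order was turned in normal 6-month replicate 2 and normal 22-month replicate 3. It rests on the exon lengths of the deposited gene models, 5815 bases for Dio2 and 1868 for Dio3. In CPM, Dio2 had the higher mean in normal mice at 6 months (8.61 against 5.91) and Dio3 in the other groups. Dio1 did not exceed 3.66 CPM and had no count in 6 libraries. For the deiodinases the counts behind a value were few: Dio2 in normal 6-month replicate 3 rested on 17 counts, with a 95% exact interval of 7.25 to 19.9 CPM.

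Dio3 lies in the imprinted Dlk1-Dio3 region, of which 7 other genes were tested. Dlk1, a Notch-related membrane protein of progenitor cells, was higher in dwarfs at both ages. Its mean went from 2.87 ± 0.880 CPM in normal mice to 24.4 ± 25.0 CPM in dwarfs at 6 months (SD, n = 5; 4.33 to 66.2 CPM in dwarfs; log2 3.07 ± 0.675, edgeR adjusted p = 0.0127). At 22 months it went from 2.45 ± 2.01 to 35.5 ± 12.9 CPM (a log2 change of 3.80 ± 0.676, edgeR adjusted p = 0.00411), and the groups did not overlap at either age. The 6-month call was lost in a fit of the compared groups only (3.01, edgeR adjusted p = 0.0636) and in limma voom (3.04, adjusted p = 0.0519). Dio3os, a noncoding RNA read from the opposite strand upstream of Dio3, was at 10.3 ± 5.13 and 16.5 ± 3.09 CPM in normal and dwarf mice at 6 months, and did not pass (log2 0.67 ± 0.372, edgeR adjusted p = 0.359). The noncoding RNAs Mirg and Rian were called lower with age in normal mice (log2 -1.55 ± 0.402 and -1.18 ± 0.341, edgeR adjusted p = 0.0265 and 0.0428). Mirg lost its call when 1 of 4 libraries was left out and Rian when 1 of 6 was, with adjusted p up to 0.086 and 0.111 in edgeR, both without normal 22-month replicate 3. Without normal 6-month replicate 5 the value of Rian was -0.69, and without the libraries with title numbers 21 to 23 it was -0.62 (edgeR adjusted p = 0.104 and 0.247). A fit of the 2 normal groups only called neither (edgeR adjusted p = 0.238 and 0.293).

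Slc16a10 encodes MCT10, a carrier of aromatic amino acids and thyroid hormones (chromosome 10, 40033535 to 40142254, minus strand). It was at 11.3, 18.9, 9.52, 14.1 and 13.9 CPM in normal mice at 6 months and at 21.5, 9.19, 18.4, 18.1 and 20.4 CPM at 22 months. In dwarfs it was at 19.4, 18.3, 17.6, 17.4 and 22.5 CPM at 6 months and at 30.0, 19.7, 23.6, 24.9 and 36.1 CPM at 22 months. The older dwarfs held the 4 highest values of all, but neighbouring groups overlapped, also without normal 22-month replicate 2, the lowest of its group. Means were 13.5 ± 3.56, 17.5 ± 4.86, 19.0 ± 2.07 and 26.9 ± 6.35 CPM (SD, n = 5, same order), so the order of the means was that of listing. No difference passed: genotype gave log2 0.45 ± 0.216 and 0.53 ± 0.214 at 6 and 22 months (edgeR adjusted p = 0.271 and 0.188). Age gave 0.33 ± 0.216 in normal mice and 0.41 ± 0.213 in dwarfs (edgeR adjusted p = 0.366 and 0.213). In dwarfs the age difference passed in limma voom (0.37, adjusted p = 0.0206) and in a fit of the 2 dwarf groups only (0.45, edgeR adjusted p = 0.0476).

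Of the 14 listed genes of hormone entry, binding and removal, 10 were tested. Over all genes 4.57% were called for genotype at 6 months and 11.2% for age in dwarfs. In both comparisons Slc7a5, the amino acid carrier LAT1, was the one called of the 10. It was at 270 ± 131 CPM in normal mice and 688 ± 204 CPM in dwarfs at 6 months (SD, n = 5; a log2 change of 1.32 ± 0.365, edgeR adjusted p = 0.0445), and at 333 ± 106 CPM in older dwarfs (log2 -1.14 ± 0.363 with age, edgeR adjusted p = 0.049). The call at 6 months was lost when any 1 of 6 libraries was left out and the call with age when any 1 of 8 was (and under RLE, upper quartile or total scaling), with edgeR adjusted p up to 0.0935 and 0.136, both without dwarf 6-month replicate 3. At 6 months it was also lost in a fit of the 2 groups only (1.28, edgeR adjusted p = 0.164). Leaving out title numbers 21 to 23 lost the 6-month call too (1.39, edgeR adjusted p = 0.0531). Summing dwarf 22-month replicates 1 and 4 lost both calls (1.29 and -1.14, edgeR adjusted p = 0.0604 and 0.0909). Without the low-count filter the age call was lost (edgeR adjusted p = 0.0505). The T4-binding globulin gene Serpina7 had no count in any of the 20 libraries.

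Of the hormone-responsive members, Klf9 is a direct T3 target in brain and liver and also responds to glucocorticoids (chromosome 19, 23141226 to 23166911, plus strand). It was at 141, 65.5, 113, 67.0 and 60.0 CPM in normal mice at 6 months and at 83.7, 55.0, 50.1, 127 and 60.2 CPM at 22 months. In dwarfs it was at 84.7, 79.8, 84.0, 61.2 and 86.3 CPM at 6 months and at 52.9, 68.3, 60.9, 57.2 and 104 CPM at 22 months. The 4 groups overlapped, and the 3 highest values were in normal libraries. Means were 89.2 ± 35.8, 75.3 ± 31.9, 79.2 ± 10.4 and 68.6 ± 20.4 CPM (SD, n = 5, same order). Genotype gave log2 -0.22 ± 0.279 and -0.21 ± 0.279 at 6 and 22 months (edgeR adjusted p = 0.742 and 0.793). Age gave -0.30 ± 0.280 in normal mice and -0.29 ± 0.278 in dwarfs (edgeR adjusted p = 0.543 and 0.505). In dwarfs the age difference passed in limma voom (-0.49, adjusted p = 0.0413), which called 7519 of all genes in that comparison.

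Hr encodes hairless, a corepressor that binds thyroid hormone receptors and is induced by T3 in brain (chromosome 14, 70554056 to 70573542, plus strand). It was at 10.1, 44.6, 12.4, 6.29 and 6.65 CPM in normal mice at 6 months and at 18.3, 16.3, 7.13, 16.8 and 14.0 CPM at 22 months. In dwarfs it was at 7.88, 13.0, 6.73, 6.33 and 4.57 CPM at 6 months and at 10.4, 15.0, 17.6, 13.3 and 9.82 CPM at 22 months. Normal 6-month replicate 2 held the highest value of the 20 libraries, and the groups overlapped. Means were 16.0 ± 16.2, 14.5 ± 4.39, 7.70 ± 3.19 and 13.2 ± 3.25 CPM (SD, n = 5, same order).

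No comparison called Hr: genotype gave log2 -1.12 ± 0.447 and -0.21 ± 0.440 at 6 and 22 months (edgeR adjusted p = 0.172 and 0.885). Age gave -0.19 ± 0.442 in normal mice and 0.72 ± 0.442 in dwarfs (edgeR adjusted p = 0.837 and 0.291). In dwarfs it passed in limma voom (0.71, adjusted p = 0.0109) and in a fit of the 2 dwarf groups only (0.77, edgeR adjusted p = 0.0417). Without the 3 libraries the age difference turned to 1.15 in normal mice (edgeR adjusted p = 0.00904) and was 0.76 in dwarfs (edgeR adjusted p = 0.0283), and the genotype difference at 6 months became 0.03 (edgeR adjusted p = 0.956). Without normal 6-month replicate 2 alone, age in normal mice gave 0.77 (edgeR adjusted p = 0.0946).

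Oviduct and epithelium markers were highest in the library with the highest Hr value. They summed to 8100 CPM in normal 6-month replicate 2 against 115 to 478 CPM in the other 4 of that group, 2550 to 5880 CPM in normal mice at 22 months, 94.9 to 2150 CPM in dwarfs at 6 months and 2570 to 4560 CPM in dwarfs at 22 months, with none of the 10 at 0 in any library. Within the young dwarfs replicate 2 held both the highest marker sum and the highest Hr value, whereas normal 22-month replicate 3 had 3560 CPM of markers and the lowest Hr value of its group. Tshr, the thyrotropin receptor gene, was at 81.7 CPM in normal 6-month replicate 2 and at 0.732 to 1.23 CPM in the other 4. It ran from 14.4 to 56.5 CPM in normal mice at 22 months, from 0.269 to 18.6 CPM in dwarfs at 6 months and from 21.1 to 57.5 CPM at 22 months. The older dwarfs were all above the younger ones in Tshr, but the difference was not called (log2 2.21 ± 1.14, edgeR adjusted p = 0.213). The part of oviduct tissue in the values of Hr and Tshr was not tested.

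**Figure D3:**
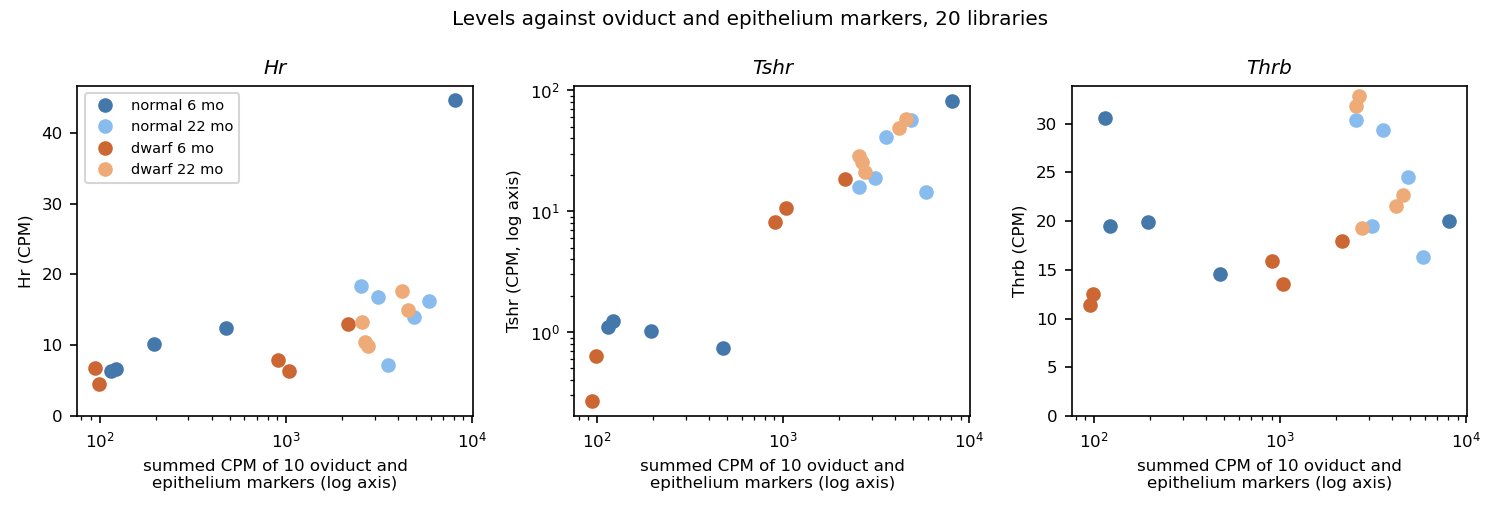
CPM of Hr, Tshr (log axis) and Thrb against the summed CPM of 10 oviduct and epithelium markers (log axis), 1 point per library. Normal 6-month replicate 2, at 8100 CPM of markers, holds the highest Hr (44.6 CPM) and Tshr (81.7 CPM) but a middling Thrb (20.0 CPM).

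**Figure D4:**
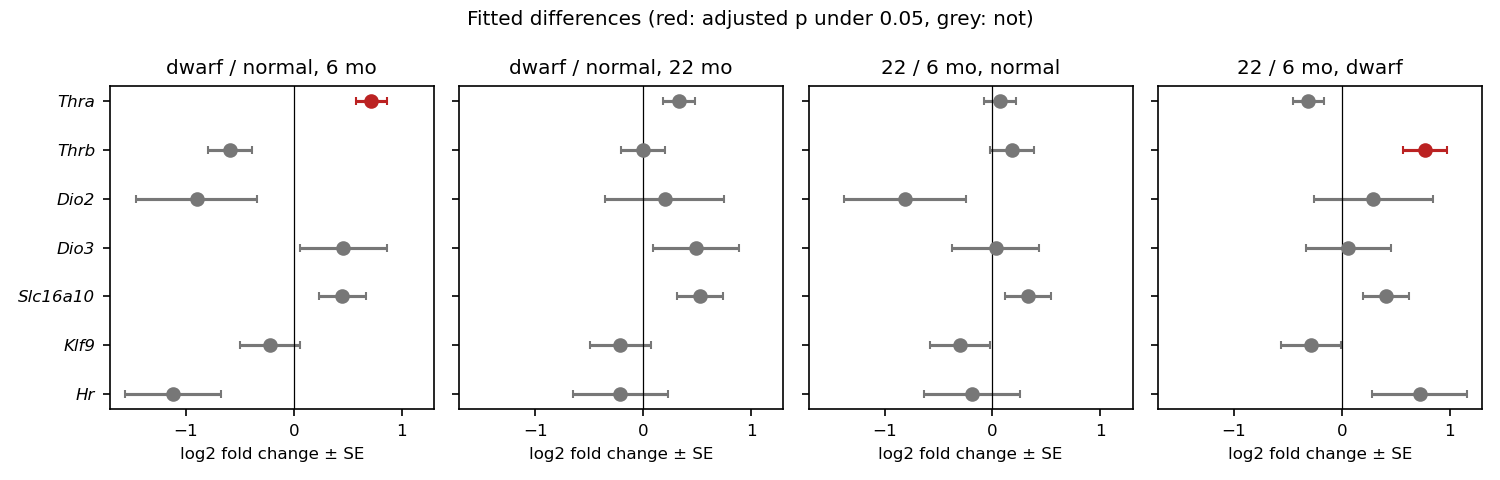
Fitted log2 fold changes ± SE of the 7 genes in the 4 pairwise comparisons; red marks an adjusted p under 0.05. Thra for genotype at 6 months (0.72) and Thrb for age in dwarfs (0.77) are the red points.

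Per kilobase of exon, Klf9 was second to Thra in all 4 groups, at 27.3 ± 11, 23.1 ± 9.77, 24.3 ± 3.17 and 21.0 ± 6.26 CPM per kb (SD, n = 5; normal at 6 and 22 months, dwarf at 6 and 22 months). Hr was at 2.93 ± 2.95, 2.65 ± 0.801, 1.41 ± 0.582 and 2.41 ± 0.593 CPM per kb and Slc16a10 at 2.07 ± 0.543, 2.67 ± 0.742, 2.90 ± 0.315 and 4.10 ± 0.968. With Thrb and the deiodinases, these 5 genes lay between 0.830 and 4.76 CPM per kb in group means, and Dio2 was the lowest in each group.

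The genes whose log2 CPM followed each member most closely over the 20 libraries were named among 14124 genes, with no test, since libraries share groups and tissue makeup. Thra was most like Zer1 (r = 0.93) and Unk (0.90), and Thrb like Mgat3 (0.81) and Tmx2 (0.79). Dio3 was most like its neighbour Dio3os (0.90), then Slc22a17 (0.84), and Dio2 like Tm6sf2 (0.76) and Lepr (0.72). Slc16a10 was most like Fam76a (0.84) and Ehhadh (0.83), Klf9 like Pttg1ip and Gnas (0.85 each), and Hr like Gpr137 (0.94) and Anxa6 (0.91). Over the 17 libraries without the 3 that stood apart, Zer1, Mgat3 and Dio3os stayed among the 2 closest genes of their members, and none of the other 11 did.

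Around the members, 105 genes of the pathway and its surroundings were listed, of which 93 were tested. Of these, 7 were higher and 4 lower in dwarfs at 6 months (11.8%, beside 4.57% of all genes), and 5 higher and 2 lower at 22 months (7.53%, beside 3.81%). With age, 1 was higher and 2 lower in normal mice (3.23%, beside 6.75%), and 3 were higher and 6 lower in dwarfs (9.68%, beside 11.2%). The lists were chosen with earlier results of these data known, so these shares are a description and not a test. Leaving out normal 6-month replicate 2 moved the first count from 11 to 18, while calls over all genes went from 735 to 1459. The count for age in normal mice moved from 3 to 19, while calls over all genes went from 1086 to 4384. Without the 3 libraries the counts were 22 for genotype at 6 months (1991 over all genes), 14 at 22 months (1762 over all genes), and 24 for age in normal mice and in dwarfs (4848 and 4697 over all genes).

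Of 14 nuclear partners and coregulators, Rxra and Rxrb, heterodimer partners of the receptors, were each called once. For Rxra this was genotype at 6 months (4.57% of all genes called), and for Rxrb age in dwarfs (11.2% of all genes). List medians in these comparisons were 0.11 and 0.06, against -0.04 and 0.00 over all genes. Rxra was at 128 ± 21.5 CPM in normal mice and 220 ± 38.9 CPM in dwarfs at 6 months (SD, n = 5), with no overlap between the groups (log2 0.75 ± 0.148, edgeR adjusted p = 0.00609). A fit of the 2 groups only did not call it (0.70, edgeR adjusted p = 0.0669). Rxrb fell with age in dwarfs from 102 ± 2.40 to 76.4 ± 7.14 CPM (a log2 change of -0.50 ± 0.120, edgeR adjusted p = 0.0127), but not when libraries were scaled by their totals (-0.42, edgeR adjusted p = 0.0601). The corepressor Ncor1 was at 354 ± 86.3 and 348 ± 20.9 CPM in normal and dwarf mice at 6 months (log2 -0.05 ± 0.118, edgeR adjusted p = 0.864). It was picked for naming after its values were seen.

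Of 5 listed genes of thyrotropin and its receptor, 2 were tested. Gpha2, the alpha subunit of thyrostimulin, a second ligand of the thyrotropin receptor, was higher in dwarfs at both ages. It rose from 2.98 ± 1.33 CPM in normal mice to 10.8 ± 3.00 CPM in dwarfs at 6 months (log2 1.91 ± 0.416, edgeR adjusted p = 0.0117). At 22 months it was at 2.71 ± 1.61 and 16.1 ± 5.20 CPM (SD, n = 5; a log2 change of 2.54 ± 0.414, edgeR adjusted p = 0.00178), and the groups did not overlap at either age. Its beta subunit partner Gphb5 had no count in 11 libraries and at most 3 counts in any, and the thyrotropin beta subunit Tshb had no count in 10 libraries and at most 7.

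Of 17 tested genes known as hormone-responsive in other tissues, none was higher and 3 were lower in dwarfs at 6 months, with a list median of -0.26 against -0.04 over all genes. In that comparison 4.57% of all genes were called, 365 higher and 370 lower. At 22 months 1 was lower and none higher, beside 3.81% of all genes, with a list median of -0.15 against -0.04. Of the 17, 5 had a positive log2 fold change at 6 months and 8 at 22 months. With age, 14 of the 17 were positive in dwarfs and 10 in normal mice. List medians with age were 0.27 and 0.16, against 0.00 and -0.02 over all genes. Age called 1 of the 17 in dwarfs, beside 11.2% of all genes, and none in normal mice, beside 6.75%. Ucp2, a mitochondrial carrier, went from 1010 ± 111 CPM in normal mice to 627 ± 61.9 CPM in dwarfs at 6 months (log2 -0.73 ± 0.130, edgeR adjusted p = 0.0032). At 22 months it was at 952 ± 94.8 and 564 ± 97.3 CPM (SD, n = 5; a log2 change of -0.85 ± 0.130, edgeR adjusted p = 0.00124). Mbp, a myelin protein gene, and Bcl3, an NF-kappa-B cofactor, were also called lower at 6 months (log2 -1.22 ± 0.302 and -1.29 ± 0.329, edgeR adjusted p = 0.0255 and 0.0299). Each lost its call without 1 of 5 libraries, with edgeR adjusted p up to 0.0855 (Mbp, young dwarf replicate 5 left out) and 0.0928 (Bcl3, young dwarf replicate 1 left out). A fit of the 2 groups only called neither (-1.25 and -1.35, edgeR adjusted p = 0.103 and 0.0588). Mbp was also not called without title numbers 21 to 23 (-1.21, edgeR adjusted p = 0.0548). Ppargc1a, a coactivator of mitochondrial genes, rose with age in dwarfs from 2.19 ± 0.883 to 5.89 ± 1.43 CPM (a log2 change of 1.37 ± 0.362, edgeR adjusted p = 0.0212), and lost its call without dwarf 22-month replicate 2 or dwarf 6-month replicate 3 or 5 (edgeR adjusted p = 0.0629, 0.0571 and 0.0653).

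The Klf9 relative Klf15, a glucocorticoid-responsive regulator of amino acid metabolism, was higher in dwarfs at both ages. It was at 32.2 ± 7.92 CPM in normal mice and 104 ± 21.5 CPM in dwarfs at 6 months (log2 1.66 ± 0.217, edgeR adjusted p = 0.000321), and at 26.2 ± 6.93 and 65.7 ± 10.8 CPM at 22 months (SD, n = 5; a log2 change of 1.24 ± 0.213, edgeR adjusted p = 0.00292). Neither pair of groups overlapped. Klf6 was higher in dwarfs at 6 months (log2 0.72 ± 0.118, edgeR adjusted p = 0.00168; 0.0547 in a fit of the 2 groups only). Of the 12 tested KLF genes besides Klf9, those were the 2 called at 6 months, Klf15 was the 1 at 22 months, and Klf15 and Klf16 were called lower with age in dwarfs (log2 -0.75 ± 0.210 and -0.68 ± 0.193, edgeR adjusted p = 0.0278 and 0.0288). In the same order, these comparisons called 4.57%, 3.81% and 11.2% of all genes. List medians were 0.21, -0.06 and -0.05, against -0.04, -0.04 and 0.00 over all genes. Both age calls were lost when any 1 of 7 libraries was left out, with edgeR adjusted p up to 0.109 (Klf15, young dwarf replicate 5 left out) and 0.107 (Klf16, young dwarf replicate 3 left out). Summing the closely alike dwarf 22-month replicates 1 and 4 also lost both (-0.75 and -0.7, edgeR adjusted p = 0.0557 and 0.0538). Klf16 was not called when libraries were scaled by their totals (-0.6, edgeR adjusted p = 0.0509).

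Of 10 glucocorticoid-induced genes, listed since Klf9 also answers to that hormone, Sgk1 was the 1 called. This kinase gene of ion transport was at 149 ± 76.4 CPM in normal mice and 25.3 ± 2.50 CPM in dwarfs at 6 months (log2 -2.59 ± 0.286, edgeR adjusted p = 0.000173), and at 219 ± 80.0 and 44.6 ± 10.3 CPM at 22 months (SD, n = 5; a log2 change of -2.37 ± 0.284, edgeR adjusted p = 0.000184). Fkbp5, a chaperone gene of the glucocorticoid receptor named after its values were seen, was at 460 ± 280 and 368 ± 81.0 CPM in normal and dwarf mice at 6 months and did not pass (log2 -0.34 ± 0.465, edgeR adjusted p = 0.762). The list as a whole was not lower in dwarfs at 6 months: 6 of the 10 genes had a positive log2 fold change. At 22 months 5 did. List medians were 0.48 and -0.09, against -0.04 over all genes at both ages. Beside the Sgk1 calls, 4.57% of all genes were called at 6 months and 3.81% at 22 months.

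Clock genes were listed for the overlap of Thra with Nr1d1, and 15 were tested. Hlf, an output transcription factor, was higher in dwarfs at 6 months (20.4 ± 5.53 against 54.6 ± 15.7 CPM; log2 1.38 ± 0.238, edgeR adjusted p = 0.00258) and at 22 months (25.9 ± 6.26 against 96.6 ± 26.6 CPM; log2 1.82 ± 0.238, edgeR adjusted p = 0.000447; SD, n = 5). Nr1d2, the Nr1d1 paralog, rose with age in dwarfs from 26.5 ± 4.39 to 58.2 ± 4.24 CPM (a log2 change of 1.06 ± 0.270, edgeR adjusted p = 0.0175). Calls for Tef (genotype at 22 months, 0.67 ± 0.175), Hlf (age in dwarfs, 0.74 ± 0.231) and Bhlhe41 (age in normal mice, 1.21 ± 0.299) had edgeR adjusted p = 0.0365, 0.0449 and 0.0214. They were lost when any 1 of 7, 7 and 3 libraries was left out, with edgeR adjusted p up to 0.0854 (without normal 22-month replicate 1), 0.105 (without dwarf 22-month replicate 5) and 0.0648 (without normal 22-month replicate 3). Each was also lost without title numbers 21 to 23 (0.56, 0.62 and 0.92, edgeR adjusted p = 0.163, 0.101 and 0.154). Summing dwarf 22-month replicates 1 and 4 lost those of Tef and Hlf (edgeR adjusted p = 0.0692 and 0.0751). The Hlf call was lost without the low-count filter (edgeR adjusted p = 0.0579). A fit of the 2 normal groups only did not call Bhlhe41 (1.26, edgeR adjusted p = 0.215). The hour at which the ovaries were taken is not given in the sources used here.

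Of 8 genes of selenoprotein synthesis, on which the deiodinases depend, 2 were called, both lower with age in dwarfs, a comparison in which 11.2% of all genes were called, 1332 lower and 470 higher. Eefsec, the elongation factor for selenocysteine, went from 47.0 ± 4.73 to 34.3 ± 3.74 CPM (a log2 change of -0.53 ± 0.128, edgeR adjusted p = 0.0129; 0.0501 without dwarf 6-month replicate 3). Secisbp2, which binds the selenocysteine insertion element, went from 38.2 ± 3.67 to 29.8 ± 3.45 CPM (SD, n = 5; a log2 change of -0.45 ± 0.114, edgeR adjusted p = 0.0175). The Secisbp2 call was lost when any 1 of 4 libraries was left out, with edgeR adjusted p up to 0.0823 without dwarf 6-month replicate 5. It was also lost when libraries were scaled by their totals (-0.36, edgeR adjusted p = 0.0738).

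**Figure D5:**
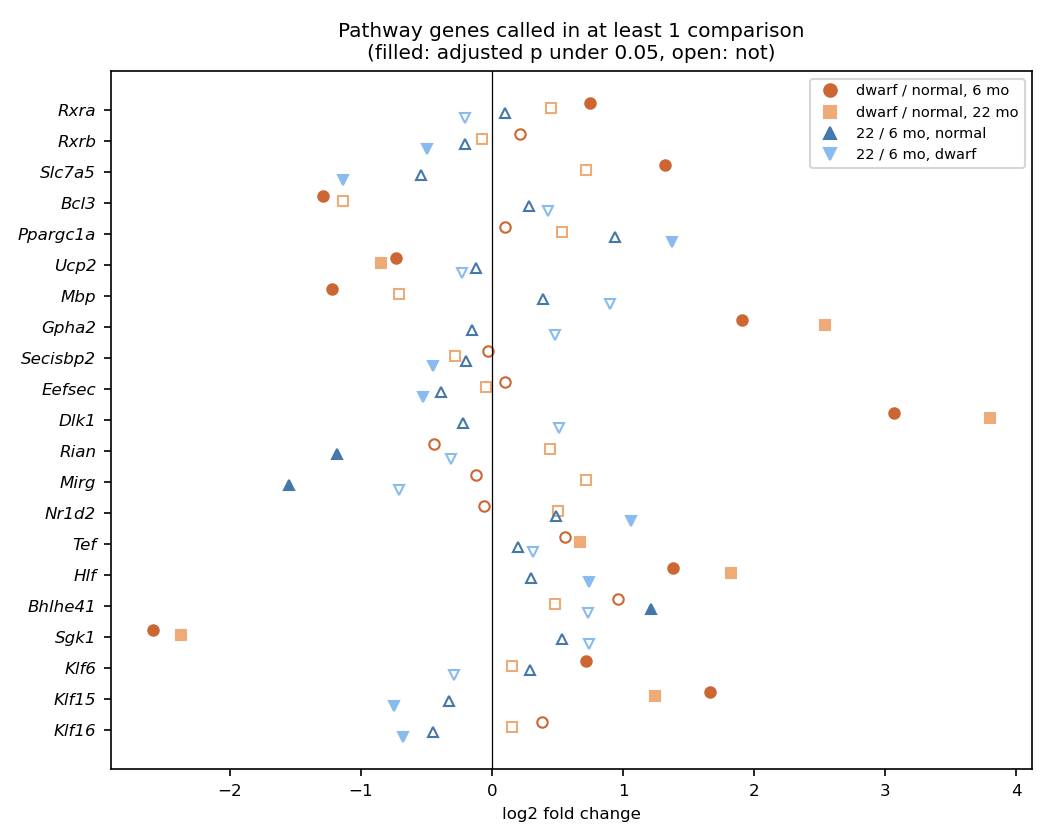
Log2 fold changes of the pathway genes called in at least 1 of the 4 pairwise comparisons (symbols), filled where the adjusted p was under 0.05. Dlk1, Gpha2, Hlf and Klf15 are filled to the right and Sgk1 and Ucp2 to the left for genotype at both ages.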

How the data were processed

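The authors deposited 1 file per library with raw read counts per gene, 23457 genes and 5 summary rows in HTSeq layout. The submitters' processing notes name Bowtie2, TopHat, TopHat2 2.0.10, HTSeq, DESeq, edgeR and mm10; not given in the sources used here are the role of each, the annotation release and the strand setting. Summary rows held 9.84 to 17.6% of a file's counts and stayed out of library sizes and tests. No column of values was left unused (0).

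The counts went into edgeR 4.0.16 under R 4.3.3 (filterByExpr with minimum count 10 and minimum total 15, TMM, a model of 4 group means over 20 libraries, robust quasi-likelihood test, common dispersion 0.165) and Benjamini-Hochberg adjustment over 16099 genes. DESeq2 1.42.0 and limma 3.58.1 (voom) were alternatives. Members and lists (9 pathway lists, 13 marker lists) were chosen with earlier results of these data known. Named genes were the members, Nr1d1, Tshr and Dio1, up to 3 called genes per list and comparison, and the 2 genes most like each member; Ovgp1, Ncor1, Fkbp5 and genes without counts were added after values were seen. A gene that the rule names is not reported here. Likeness is Pearson's r of log2 CPM (prior count 2) among genes averaging 2 CPM or more. Exons came from the deposited annotation, transcripts from GENCODE M21 and promoters from RefSeq. Comparisons share groups: each group enters 2 of the 4 pairwise comparisons.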

Additional observations from a re-analysis of the deposited data

Results flagged for a closer look

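In 5 of 44 groups of 5 libraries, 1 library lay far from the other 4 by Dixon's test at the 95% level, which chance flags in about 1 in 20 groups. Normal 6-month replicate 2 did so for Hr, at 44.6 CPM against 6.29 to 12.4 CPM, and for Tshr, at 81.7 CPM against 0.732 to 1.23 CPM; it is also the library with the highest oviduct and epithelium markers. Dio2 was at 13.8 CPM in dwarf 6-month replicate 2 against 1.35 to 3.55 CPM. Slc16a10 was at 9.19 CPM in normal 22-month replicate 2 against 18.1 to 21.5 CPM, and Klf9 at 61.2 CPM in dwarf 6-month replicate 4 against 79.8 to 86.3 CPM.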

How the results depend on the processing

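Over all settings, Thra kept its call for genotype at 6 months. Of the 7 genes, limma voom called 1 for age in normal mice (3859 over all genes), 5 for age in dwarfs (7519 over all genes) and 2 for genotype at 6 months (1860 over all genes). DESeq2 called 2 for genotype at 6 months (1414 over all genes). For age in dwarfs, a fit of the compared groups only called 3 (5169 over all genes), leaving out the 3 libraries 2 (4697), and summing dwarf 22-month replicates 1 and 4 gave 0 (1107); leaving out 1 library gave 0 to 1. Leaving out the 3 libraries gave 1 for age in normal mice (4848 over all genes).

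Pathway genes called for age in normal mice were 6 in DESeq2, 19 in limma voom, 0 in the compared groups only, 24 without the 3 libraries, 0 without title numbers 21 to 23, and 0 to 19 without 1 library. For age in dwarfs they were 5 with library totals, 14 in DESeq2, 43 in limma voom, 28 in the compared groups only, 24 without the 3 libraries, 5 with the summed replicates, and 2 to 10 without 1 library. For genotype at 6 months they were 18 in limma voom, 5 in the compared groups only, 22 without the 3 libraries and 8 to 18 without 1 library. For genotype at 22 months they were 14 in DESeq2, 22 in limma voom, 11 in the compared groups only and 14 without the 3 libraries. For the difference of the age responses 1 was called without the 3 libraries. Calls over all genes ranged from 0 to 4848, 802 to 7519, 244 to 1991, 262 to 2291 and 0 to 202 (age in normal mice, age in dwarfs, genotype at 6 and 22 months, difference). The cause was not tested.

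Signs that turned were of uncalled log2 fold changes, except Hr for age in normal mice, which turned and was called in limma voom (0.93) and without the 3 libraries (1.15); it was 0.16 with the replicate block and -0.46 to 0.77 without 1 library. For age in normal mice, Dio3 gave -0.01 with Rn45s removed, -0.03 with the replicate block, -0.03 with the summed replicates and -0.36 to 0.31 without 1 library, and Thra -0.02 to 0.24. For age in dwarfs Dio3 gave -0.07 to 0.18 without 1 library. Hr for genotype at 6 months was 0.03 without the 3 libraries. For genotype at 22 months Thrb gave 0.01 with RLE, 0.07 with upper quartile, 0.09 with library totals, 0.01 with Rn45s removed, 0.01 without a filter, 0.01 in DESeq2, 0.13 in limma voom, 0.01 in the compared groups only, 0.11 without the 3 libraries, 0.22 without title numbers 21 to 23 and -0.09 to 0.12 without 1 library; Dio2 gave -0.01 to 0.47 and Klf9 -0.37 to 0.06. For the difference of the age responses Dio3 gave 0.00 in limma voom, -0.25 without the 3 libraries and -0.21 to 0.42 without 1 library, and Slc16a10 -0.13, -0.01 and -0.09 to 0.22. Klf9 gave 0.00 without a filter, -0.27 in limma voom, 0.00 with the replicate block, -0.17 without the 3 libraries, -0.10 without title numbers 21 to 23 and -0.15 to 0.32 without 1 library. Hr gave -0.22 in limma voom, -0.39 without the 3 libraries and -0.01 to 1.21 without 1 library. With the replicate block Thra at 6 months was 0.74 and Thrb with age in dwarfs 0.74, and both kept their calls. Replicate numbers were not taken to pair mice: 10 of 30 same-numbered pairs across groups correlated above 0.1 (-0.22 to 0.72), as did 36 of 120 with different numbers (-0.65 to 0.46). Depth limits Dio3, Slc16a10, Dio2, Hr and Thrb, which had 12, 13, 17, 17 and 20 counts in normal 6-month replicate 3.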
